A study of Mus musculus with 34 samples.

Results

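Heart muscle draws most of its energy from long-chain fatty acids, and 35 genes that carry a fatty acid from the cell surface to its breakdown in the mitochondrion were followed here through the first 48 h of a myocardial infarction (MI). The members were taken by gene symbol from a fixed list, with no measured value in the rule, but the list was chosen with earlier results of these data known. It holds 5 genes of uptake and activation, 5 of the carnitine shuttle, 4 acyl-CoA dehydrogenases, 6 of the steps from hydration to thiolysis, 4 for unsaturated fatty acids, 3 of electron transfer, 3 acyl-CoA thioesterases, 2 that set the level of malonyl-CoA and 3 fasting-response genes. All 35 were found among the 14552 genes of a first table and the 17406 genes of a second, and all 35 had a mean of at least 1 CPM (read counts scaled to library size), the level above which a gene was tested, in both tables.

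Fatty acids enter the cardiomyocyte with the help of membrane transporters, are bound by a small carrier protein and are joined to coenzyme A. The acyl groups then cross the mitochondrial membranes as carnitine esters and are shortened in a repeating spiral of oxidation, hydration, oxidation and thiolysis, whose electrons pass to the respiratory chain. Entry is held back by malonyl-CoA, which inhibits the first carnitine acyltransferase, and many genes of the route are known targets of the nuclear receptor PPARα, which is active in fasting.

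All hearts came from CFW mice, an outbred stock, and the left ventricle (LV) was sequenced as bulk poly(A) RNA. In the first table no heart was injected: 3 were sham hearts, and the others were collected 4 h (n = 3) or 24 h (n = 4) after the left anterior descending coronary artery had been permanently tied. The labels of the 3 sham hearts give their titles as sham and their condition as no operation, whereas the paper calls them sham-operated. For this table, the study's methods state that tissue of the ischemic area was taken, with the matching area from sham hearts. In the second table, 2 hearts were taken 4 h after a sham operation, and all other hearts had the ligation followed at once by an injection into the border zone of modified mRNA (modRNA), either one named AC in the labels or luciferase modRNA (Luc), which encodes a reporter enzyme. These hearts were collected at 4 h (AC n = 4, Luc n = 4), 24 h (AC n = 3, Luc n = 3) and 48 h (AC n = 4, Luc n = 4). The sham hearts of the second table had neither infarct nor modRNA, so a Luc heart differed from them by both, and a later Luc heart also by the time of collection. In the titles, the sham and 4 h hearts share a run of sample numbers, the 48 h hearts have another and the 24 h hearts have none. The labels do not say what these forms mark, so a difference between them cannot be told apart from one between times. Age, sex and pooling were not given in the labels used here, and p-values measure the spread between these libraries.

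The values of the 2 tables were normalized separately, so each comparison stayed within a table. Summed CPM of the listed genes ran from 568058 to 662286 per library in the first table and from 508204 to 818456 in the second, where the Luc 24 h hearts lay between 730630 and 818456 and the AC 48 h hearts between 518618 and 534624. Heart muscle could be recognized by its marker genes, since 15 cardiomyocyte markers summed to 63111 to 68291 CPM in the sham hearts of the first table. The 6 adipocyte markers summed to at most 28.6 CPM and the brown adipocyte markers to at most 32.6 CPM in any library. The atrial myosin light chain Myl7 and the atrial calcium pump regulator Sln were under 1 CPM in every sham and 4 h library of the second table, whereas Myl7 was 1.49 to 112 CPM in the 24 h and 48 h libraries.

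Promoter sequence was searched for the element that PPARα is known to bind, 2 copies of a half-site in tandem with 1 base between them. Of the 35 members, 28 had a promoter in the RefSeq table of build GRCm38.p6, taken as 250 bases before to 50 bases after the start of the gene, and Acaa2, Acat1, Acot13, Angptl4, Cpt1b, Crat and Decr1 had none. AGGTCANAGGTCA on either strand was found in none of the 28 with 0 or 1 mismatch (0.0481% and 0.644% of 27025 genes with a promoter), and with up to 2 mismatches in 5 of the 28 against 4.40% of all genes. The 5 windows are shown because they are the closest matches among the members, each 30 bases on the strand of the gene with the matching 13 bases in capitals (in Cd36 and Etfa the motif reads on the other strand), and a match is a likeness of letters, not a bound site:
Cd36: tggttctcTGGCCTCTGACTTacttggatg
Ucp3: tcagaattAGGTTTCAGGTCAgctggtgca
Echs1: gcccgctcAGGTCACGGGTCCaccccttaa
Etfa: gcacacccTTACCTTTGCCCTactcccaag
Slc25a20: ctgaatgtAGGTGAAAGGTCGgcggagccg
The windows lie at chr5:17835938-17835967 (minus strand) for Cd36, chr7:100472932-100472961 (plus) for Ucp3, chr7:140116483-140116512 (minus) for Echs1, chr9:55512299-55512328 (minus) for Etfa and chr9:108662134-108662163 (plus) for Slc25a20. The deposited tables place Cd36 at chr5:17781690-17888960, so its window belongs to a start inside that interval. In Slc25a20 the match begins 6 bases after the start used for its promoter, inside the transcribed part, and in the others it lies upstream of that start. The deposited tables start Slc25a20 earlier, at chr9:108662098. The single half-site AGGTCA, which the tandem motif contains, was present in 8 of the 28 (Cd36, Acsl6, Cpt1a, Acadvl, Acadm, Echs1, Acacb and Ucp3) against 18.1% of all genes.

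The question of the first table was how the ventricle changes 4 and 24 h after ligation. At 24 h post-MI, 28 of the 35 genes were lower than in sham hearts and 2 were higher, Angptl4 and Pdk4. The median log2 fold change of the 35 was -0.74, against 0.04 over the 12487 genes tested, and 15.9% of all genes lay below the members' median. This comparison changed much of the transcriptome: 66.0% of all genes passed the same test, 30.3% as lower and 35.6% as higher. For 26 of the 35 genes every 24 h heart lay below every sham heart, against 28.7% of all genes. Calls rest on limma fits to log2(CPM + 1) with p adjusted over all genes tested and a threshold of 0.05, and fold changes are on that scale. In bulk tissue, fewer cardiomyocytes and less RNA per cardiomyocyte cannot be told apart. The 15 cardiomyocyte markers summed to 31854 to 50609 CPM at 24 h, below every sham heart, with 8 of 15 lower, 2 higher and a median log2 fold change of -0.58, while 9 of 9 tested neutrophil and monocyte markers were higher with a median of 6.05 and sums of 494 to 2277 CPM against 8.49 to 10.2 in sham hearts. Of 7 endothelial markers 2 were higher and 3 lower, of 6 fibroblast markers 2 were lower, and of 2 tested atrial markers 1 was higher. The part of these shifts in the result was not tested.

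**Figure D1:**
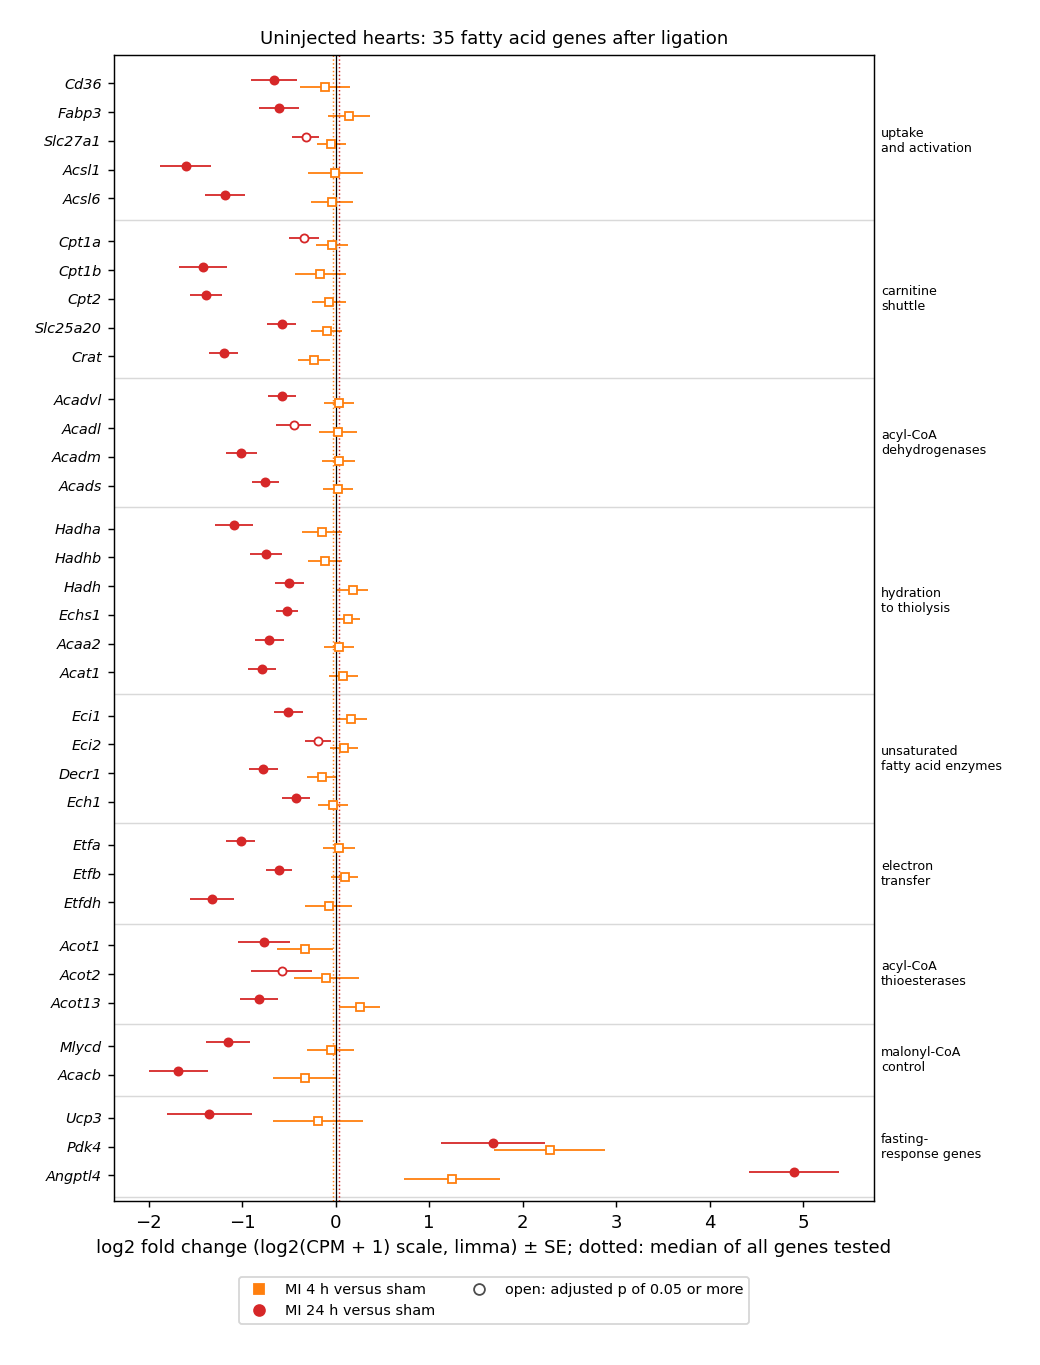
Log2 fold change (log2(CPM + 1) scale) ± SE from limma for the 35 genes at 4 h (squares) and 24 h (circles) post-MI against sham hearts of the first table, grouped by role, with filled symbols for adjusted p under 0.05 and dotted lines at the median of all genes tested. At 24 h, 28 genes are filled on the left of zero and Pdk4 and Angptl4 on the right, and at 4 h no symbol is filled.

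Per-library values are given in the order of the replicate letters or numbers of the labels, which for the first table are D, H and I (sham), C, D and E (4 h) and C, D, G and H (24 h). Of the 5 genes of uptake and activation, 4 fell. Cd36, the main fatty acid translocase of the plasma membrane, was 1545, 1312 and 1299 CPM in sham hearts and 556, 1091, 1319.9 and 733 CPM at 24 h post-MI. Replicate G reached into the sham range, and Cd36 fell with a log2 fold change of -0.66 ± 0.25 (SE), adjusted p = 0.036. Fabp3, the heart fatty acid binding protein, went from 2329, 1988 and 1964 CPM to 929, 1453, 1875 and 1401 CPM without overlap (log2 fold change -0.60 ± 0.21, adjusted p = 0.024), and 29.2% of its 50-base windows, the read length, also occur in the pseudogene Fabp3-ps1. Acsl1, the main acyl-CoA synthetase of the heart, showed one of the deepest falls of the 35 genes. It was 802, 798 and 741 CPM in sham hearts and 147, 289, 427 and 237 CPM at 24 h, 64.7% lower by the group means (log2 fold change -1.60 ± 0.27, adjusted p = 0.00032). Acsl6, a synthetase of low level here, fell from a range of 5.45 to 7.77 CPM down to one of 2.05 to 2.96 CPM, adjusted p = 0.00046. The transporter Slc27a1 overlapped between the groups and did not pass (62.2 to 92.3 against 56.6 to 74.6 CPM, log2 fold change -0.32, adjusted p = 0.07).

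Of the 5 genes of the carnitine shuttle, 4 fell and the median log2 fold change was -1.20. Cpt1b, the muscle form of the outer-membrane carnitine palmitoyltransferase, was tightly grouped in sham hearts at 542, 538 and 524 CPM and stood at 123, 223, 338 and 171 CPM at 24 h. No MI heart reached the sham values (log2 fold change -1.42 ± 0.26, adjusted p = 0.00052). Its level may be less certain, since 80.4% of its 50-base windows are shared with the read-through gene model Gm44502 on the same strand. Cpt1a, the liver form, was 27.6, 29.4 and 29.0 CPM in sham hearts and 24.4, 29.2, 20.7 and 17.0 CPM at 24 h, overlapping through replicate D, and did not pass (log2 fold change -0.34 ± 0.16, adjusted p = 0.078). The Cpt1a to Cpt1b ratio of CPM within a library, a quantity in which library scaling cancels but transcript length does not, was 0.0509 to 0.0553 in sham hearts, 0.0499 to 0.0668 at 4 h and 0.0613 to 0.199 at 24 h, so the 24 h hearts lay above all sham hearts. Cpt2, the inner-membrane partner that returns the acyl group to coenzyme A, was 182, 176 and 168 CPM in sham hearts against 46.9, 73.8, 86.2 and 66.4 CPM. Its fall had the smallest adjusted p of the 28 lower genes (3.3e-05, log2 fold change -1.38 ± 0.17). Crat, which buffers acetyl groups as acetylcarnitine, fell from a range of 536 to 607 CPM down to one of 182 to 305 CPM (adjusted p = 4.8e-05). Slc25a20, the carrier that swaps acylcarnitine for carnitine, fell less, from a range of 107 to 121 CPM down to one of 54.0 to 90.4 CPM (log2 fold change -0.58 ± 0.16, adjusted p = 0.0067).

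The first oxidation of the spiral is made by dehydrogenases of different chain length, and 3 of the 4 fell. Acadm, the medium-chain enzyme, was 1009, 1046 and 1049 CPM in sham hearts and 382, 532, 673 and 509 CPM at 24 h, with no overlap (log2 fold change -1.01 ± 0.17, adjusted p = 0.00027). Acads, the short-chain enzyme, fell with a log2 fold change of -0.75 ± 0.15 and Acadvl, the very-long-chain enzyme, with -0.57 ± 0.15. Of the exon bases of Acadvl, 42.9% overlap Dvl2 on the opposite strand. Acadl, the long-chain enzyme, was lower in all 4 MI hearts (423, 708, 799 and 621 CPM) than in any sham heart (854, 879 and 811 CPM) but did not pass, with a log2 fold change of -0.45 ± 0.19 and adjusted p = 0.054. All 6 genes of the later steps fell, with log2 fold changes from -1.08 to -0.49. Hadha, the alpha subunit of the trifunctional protein that handles long chains, was 1009, 1149 and 1103 CPM in sham hearts and 357, 553, 719.5 and 483 CPM at 24 h (log2 fold change -1.08 ± 0.20, adjusted p = 0.00059). Hadhb, its beta subunit, was 1348, 1391 and 1432 CPM and then 621, 892, 1058 and 808 CPM (log2 fold change -0.74 ± 0.17, adjusted p = 0.0025). Both subunits were lower in every MI heart (57.5% of the windows of Hadhb are shared, mostly with the gene model Gm13910), and the Hadha to Hadhb ratio of CPM, 0.749 to 0.826 in sham hearts, was 0.574 to 0.680 at 24 h. The remaining 4 fell from a range of 140.4 to 176 CPM down to one of 87.4 to 131 CPM for Hadh, the short-chain hydroxyacyl-CoA dehydrogenase, from a range of 327 to 379 CPM down to one of 208 to 285 CPM for the hydratase Echs1, from a range of 567 to 610.3 CPM down to one of 267 to 429 CPM for the thiolase Acaa2 and from a range of 419 to 435 CPM down to one of 194 to 309.6 CPM for Acat1, the acetoacetyl-CoA thiolase.

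**Figure D2:**
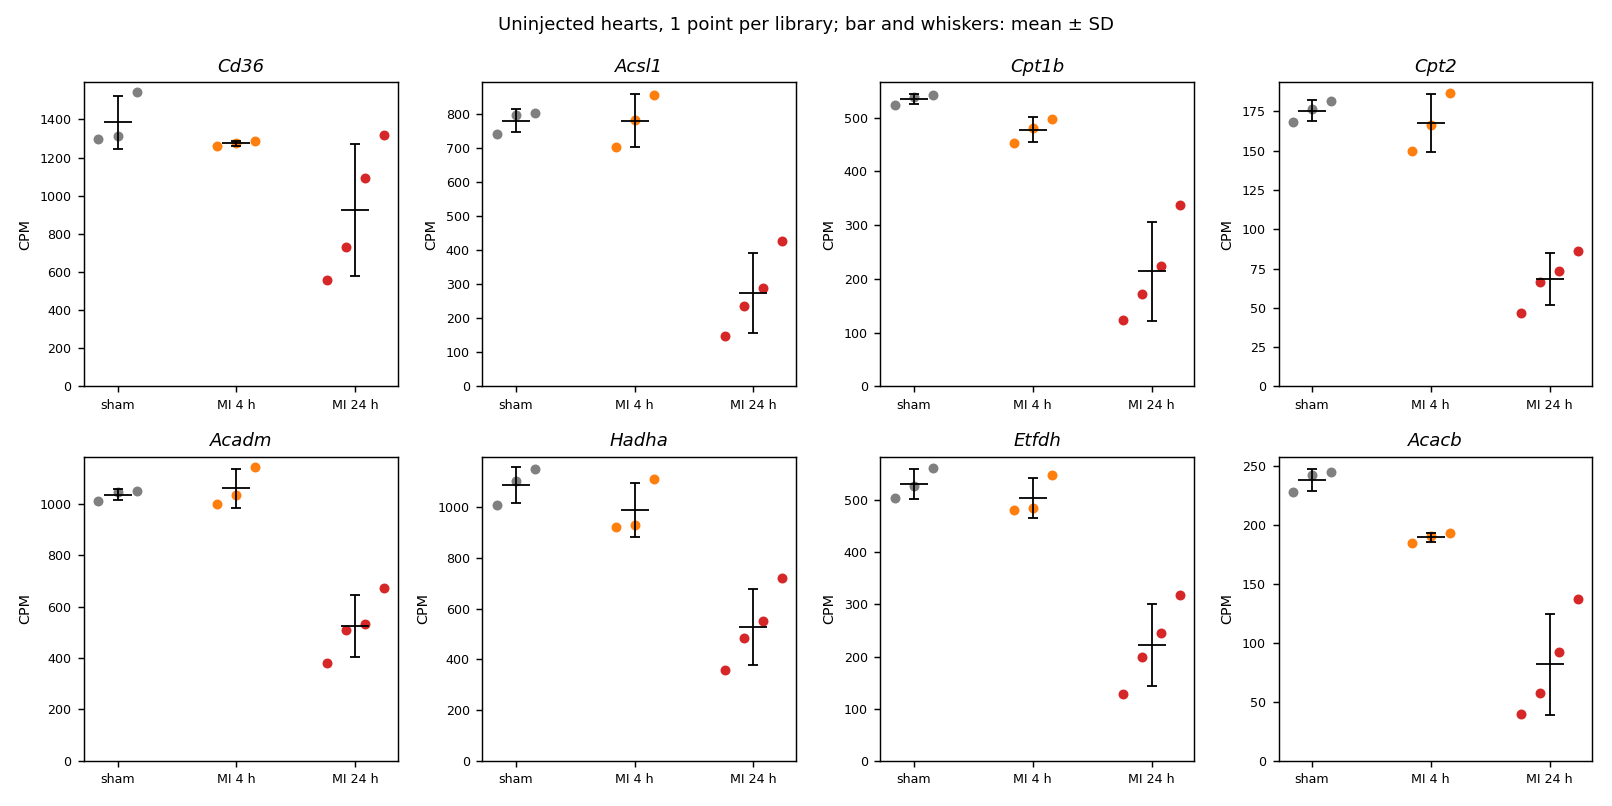
CPM per library (points, linear axes from 0) with the mean ± SD for 8 genes in sham, 4 h and 24 h hearts of the first table. The 24 h points lie below all sham points for 7 of the genes, whereas for Cd36 replicate G (1320 CPM at 24 h) overlaps the sham hearts.

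The isomerases and reductase that bring double bonds into the spiral moved less than the other groups, with a median log2 fold change of -0.46. Decr1, the dienoyl-CoA reductase, fell from a range of 303 to 319.7 CPM down to one of 135 to 225 CPM (adjusted p = 0.00091), Eci1 from a range of 146 to 196 CPM down to one of 88.8 to 136 CPM (adjusted p = 0.014) and Ech1 from a range of 614 to 732 CPM down to one of 399 to 613 CPM (adjusted p = 0.027). Eci2, an isomerase found in mitochondria and peroxisomes, overlapped between groups (84.8 to 104 against 62.1 to 92.5 CPM) and had the smallest change of the 35, with a log2 fold change of -0.19 ± 0.14 and adjusted p = 0.24. The flavoprotein relay that hands electrons to ubiquinone fell in all 3 genes. Etfdh, the ubiquinone oxidoreductase of the relay, was 562, 527 and 503 CPM in sham hearts and 129, 245, 317 and 199 CPM at 24 h (log2 fold change -1.32 ± 0.24, adjusted p = 0.00045). Etfa fell from a range of 374 to 415 CPM down to one of 148 to 246 CPM and Etfb from a range of 333 to 351 CPM down to one of 178 to 268 CPM, and the Etfa to Etfb ratio of CPM went from 1.13 to 1.18 in sham hearts to 0.803 to 0.949 at 24 h. Of the 50-base windows of Etfb transcripts, 57.7% also occur in the overlapping gene model Gm45233, so its level may be less certain.

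Thioesterases release free fatty acid from acyl-CoA, and Acot1 (cytosolic) and Acot2 (mitochondrial) are neighbouring paralogs at chr12:84009502-84017670 and chr12:83987861-83993876 (build mm10) that share 23.5% and 24.5% of their 50-base windows with each other. Acot1 was low, with 8.24, 5.11 and 5.34 CPM in sham hearts and 1.54, 5.36, 4.31 and 2.54 CPM at 24 h, and fell with overlap through replicate D (log2 fold change -0.77 ± 0.28, adjusted p = 0.031). Acot2 was 45.8, 34.2 and 39.8 CPM and then 14.7, 46.9, 38.0 and 18.0 CPM. Replicates D and G stood at the level of the sham hearts and C and H below it, and Acot2 did not pass (log2 fold change -0.58 ± 0.33, adjusted p = 0.14). Acot13 fell from a range of 119 to 191 CPM down to one of 58.8 to 108 CPM (adjusted p = 0.0044). Acacb, the mitochondrial-surface carboxylase that makes malonyl-CoA, had the deepest fall of the 35 genes, from 245, 242 and 228 CPM to 39.5, 92.6, 137 and 57.8 CPM (log2 fold change -1.68 ± 0.31, adjusted p = 0.00064). Mlycd, the decarboxylase that removes malonyl-CoA, fell too, from 88.8, 60.0 and 65.7 CPM to 19.3, 40.2, 43.3 and 27.7 CPM (log2 fold change -1.15 ± 0.24, adjusted p = 0.0012). The maker and the remover of the same inhibitor were thus both lower, and their Acacb to Mlycd ratio of CPM overlapped between sham hearts (2.75 to 4.04) and 24 h hearts (2.05 to 3.16).

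The 3 genes known for their induction by fasting went in different directions. Angptl4, a secreted inhibitor of lipoprotein lipase, was 9.55, 1.69 and 1.98 CPM in sham hearts, 6.32, 20.2 and 6.27 CPM at 4 h and 128, 179, 101 and 124 CPM at 24 h. All 24 h hearts stood far above the rest, with a log2 fold change of 4.90 ± 0.48 and adjusted p = 6e-06 against sham, a 30.2-fold difference of the group means. Pdk4, the kinase that switches off pyruvate dehydrogenase, was 464, 93.9 and 133 CPM in sham hearts, 772, 1395 and 636 CPM at 4 h and 417, 1408, 405 and 479 CPM at 24 h. It rose at 24 h although the groups overlapped, since sham replicate D was above 2 of the 24 h hearts (log2 fold change 1.69 ± 0.56, adjusted p = 0.019). Ucp3, a mitochondrial inner-membrane carrier, was 32.5, 13.3 and 14.5 CPM in sham hearts and 4.24, 18.2, 4.51 and 5.14 CPM at 24 h, and fell with overlap through replicate D (log2 fold change -1.35 ± 0.45, adjusted p = 0.021). Replicate D held the highest value of its group in all 3 groups for Pdk4, Ucp3, Angptl4 and Acot2 and for no other member, and for 11 of the 35 genes in none of the groups. The labels do not say what the letters mark. Without the sham replicate D, 25 of the 35 genes passed at 24 h, and without the 24 h replicate D, 32 passed.

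**Figure D3:**
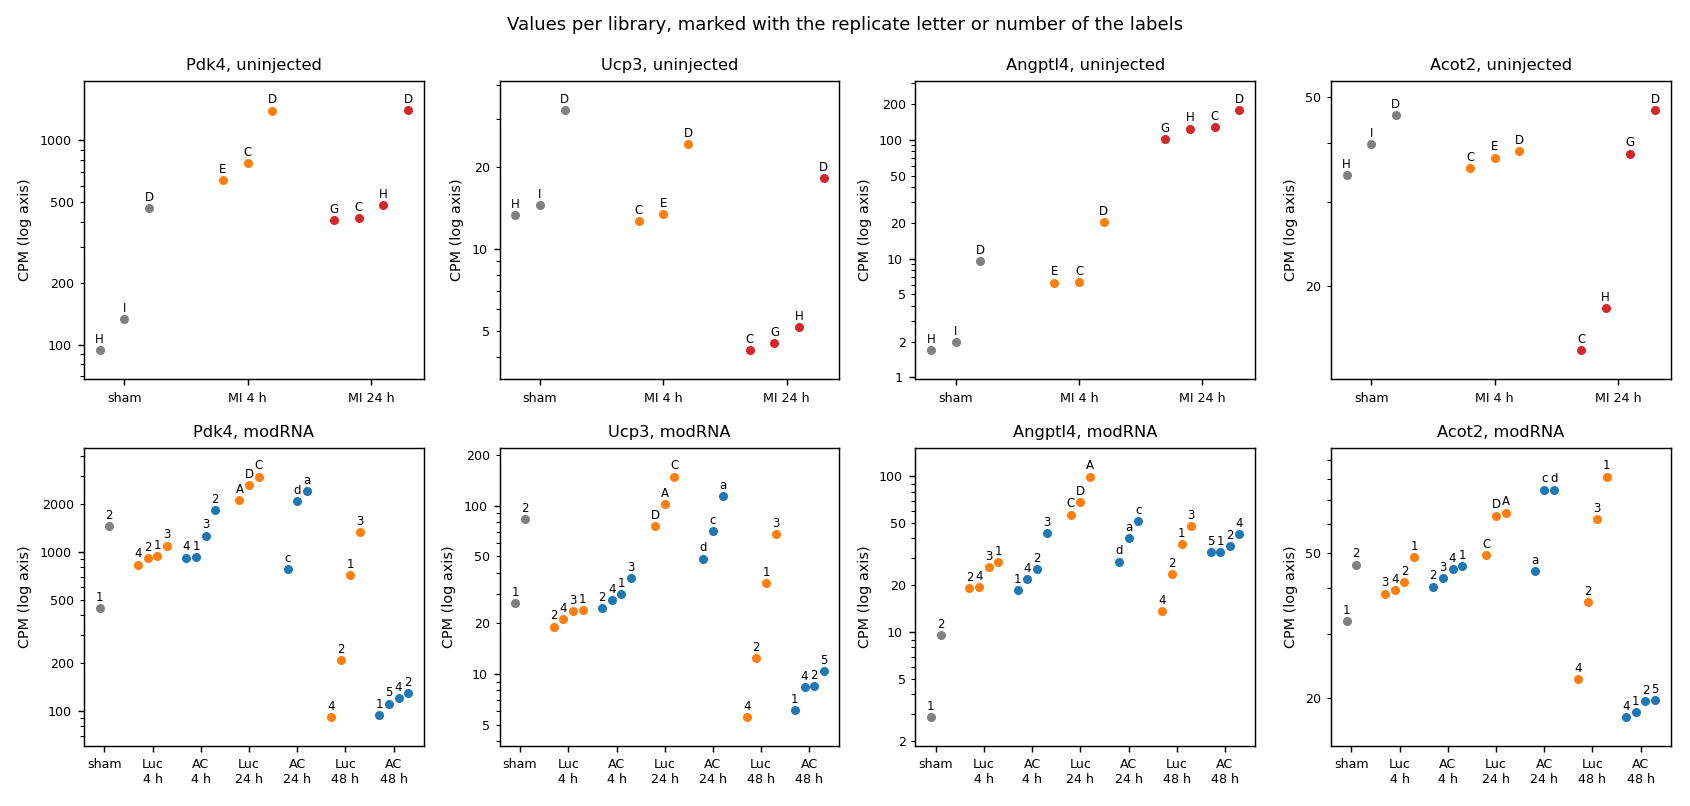
CPM per library on log axes for Pdk4, Ucp3, Angptl4 and Acot2 in the first table (top) and the second (bottom), sorted by value within a group and marked with the replicate letter or number. In the top row D is the highest mark of every group, and in the bottom row the Luc 48 h hearts spread from 91.6 to 1332 CPM for Pdk4 whereas the 4 AC 48 h hearts lie between 94.4 and 130 CPM.

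At 4 h post-MI, none of the 35 genes passed, when 2.37% of all genes did, and 2 of the 35 had an unadjusted p under 0.05 (2058 of all genes). The median log2 fold change of the 35 was -0.03, as over all genes. Largest was Pdk4 (log2 fold change 2.29 ± 0.59, adjusted p = 0.083). Its 4 h hearts all lay above the sham hearts, as for 2 of the 35 and 10.9% of all genes. Next was Angptl4 with overlapping groups (1.24 ± 0.51, adjusted p = 0.26), and the other 33 genes lay between -0.33 and 0.26. Without sham replicate D, 1 member passed as higher. Cpt1b, Acacb, Crat and Cd36 were lower in every 4 h heart than in any sham heart without passing, for example Acacb at 193, 190.4 and 185 CPM against 245, 242 and 228 CPM. Non-overlap in that direction held for 18.0% of all genes.

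Between 4 and 24 h post-MI, 27 of the 35 genes fell and Angptl4 rose, when 63.9% of all genes were called, 26.7% as lower and 37.2% as higher. Acsl1 went from 703, 783 and 856 CPM to the 24 h values above (log2 fold change -1.60 ± 0.27, adjusted p = 0.00036), Cpt2 from 149.8, 166 and 187 CPM (-1.31 ± 0.17, adjusted p = 5.8e-05) and Acacb from 193, 190.4 and 185 CPM (-1.35 ± 0.31, adjusted p = 0.0029). For these 3 genes the 24 h hearts lay below every 4 h heart, as for 25 of the 35 and 25.1% of all genes. Pdk4, which did not pass here, overlapped between the times (-0.60 ± 0.56, adjusted p = 0.36). The comparisons with sham hearts and between the times share the 24 h libraries. Of 15 cardiomyocyte markers 9 were lower and 1 higher between the times, with a median log2 fold change of -0.68. All 9 tested neutrophil and monocyte markers were higher (median 4.64). Fibroblast markers were lower in 4 of 6, erythroid markers lower in 5 of 5, and endothelial markers higher in 2 of 7 and lower in 3. Of 2 tested atrial markers 1 was higher. The part of these shifts in the result was not tested.

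Replicate G was the 24 h heart nearest to the sham hearts over all genes (Pearson r with the sham mean 0.894 across genes, against 0.785 to 0.828 in the others), and it held the highest 24 h value for 25 of the 35 genes, among them Acsl1, Cpt1b, Acadm, Hadha, Etfdh, Acacb and Fabp3. Replicate C, with the lowest r, held the lowest value for 31 of the 35. The spread of the members within the 24 h group, with a median SD of 0.33 on the log2 scale, was larger than over all genes (0.21), and larger than in sham hearts (0.10).

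Beyond the 35, 50 genes of neighbouring steps were listed, of which 46 were tested in the first table. At 24 h post-MI 27 were lower and 8 higher, when 30.3% of all genes were lower and 35.6% higher. Peroxisomal beta-oxidation fell in 13 of 15, led by the bifunctional enzyme Ehhadh (mean 2.16 against 8.40 CPM in sham hearts, log2 fold change -1.60 ± 0.21). Of 10 further genes, a mixed list that is not only mitochondrial, 5 fell and 2 rose. The largest change was in Acad11, a dehydrogenase of the acyl-CoA family (34.6 against 163 CPM, -2.28 ± 0.23). Ketone body use fell in 3 of 5 genes, led by Oxct1, which activates ketone bodies (481 against 1231 CPM, -1.38 ± 0.18). In supply and activation 4 of 9 rose and 2 fell, with the largest change in the lipoprotein receptor Vldlr (110.4 against 326 CPM, -1.60 ± 0.20), and the synthetases Acsl4 and Acsl5, named after their values were seen, rose (1.47 ± 0.11 and 1.26 ± 0.11). Of 4 carnitine supply genes 3 fell and 1 rose, with the largest change in Slc22a4, a plasma-membrane transporter (9.78 against 3.29 CPM, 1.32 ± 0.12). Of the other 3 kinases of pyruvate dehydrogenase, Pdk2 had the largest change and fell (127 against 382 CPM, -1.60 ± 0.15), 1 rose and 1 did not pass.

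The second table compares infarcted hearts given modRNA over time, and AC with Luc modRNA. At 4 h, Luc hearts differed from sham hearts in 1 member, Angptl4, when 1.55% of all genes passed, 1.25% as higher. Angptl4 was 2.87 and 9.58 CPM in the 2 sham hearts and 28.3, 19.3, 26.2 and 19.6 CPM in Luc 4 h hearts (log2 fold change 1.91 ± 0.40, adjusted p = 0.012). The groups did not overlap, as for 17.2% of all genes in that direction. The 2 sham hearts themselves lay far apart for the fasting-response genes, with Pdk4 at 444 and 1459 CPM and Ucp3 at 26.4 and 83.1 CPM. Without sham replicate 1 no member passed at 4 h.

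At 24 h, Luc hearts had 6 members higher and 1 lower than sham hearts, when 34.1% of all genes passed, 25.3% as higher and 8.79% as lower. The median log2 fold change of the 35 was 0.16, equal to that of all genes (0.16), a shift of the whole distribution that depends on scaling: the split of called members was 3 higher and 3 lower after median-ratio rescaling and 1 higher and 8 lower at equal total CPM. Angptl4, the member with the largest rise, was 99.6, 57.0 and 68.3 CPM in Luc 24 h hearts (log2 fold change 3.53 ± 0.42, adjusted p = 2.7e-06), and it passed under each of the alternatives. The other 5 higher genes were Slc27a1, Cpt1a, Acads, Fabp3 and Cpt1b, of which Cpt1a had the tightest values at 53.4, 53.6 and 53.7 CPM against 21.7 and 41.1 CPM (0.82 ± 0.25, adjusted p = 0.014). Slc27a1 had the next largest rise after Angptl4 among the genes that passed, from 38.7 and 90.7 to 139, 85.7 and 107 CPM with overlap (0.86 ± 0.25, adjusted p = 0.012). Pdk4 (1.66 ± 0.70, adjusted p = 0.07) and Ucp3 (1.14 ± 0.61, adjusted p = 0.15) had larger log2 fold changes and did not pass. The gene that fell was Etfa, at 395, 356 and 417 CPM against 616 and 448 CPM (log2 fold change -0.43 ± 0.16, adjusted p = 0.04). Only 1 member, Angptl4, passed without sham replicate 1, 3 passed without Luc 24 h replicate A and 4 without replicate D. Markers of other cell types moved too, with 4 of 4 atrial markers higher (sums of 362 to 603 against 60.7 to 117 CPM), 3 of 3 tested adipocyte markers (6.32 to 28.6 against 1.81 to 2.54 CPM for all 6), 7 of 9 neutrophil and monocyte markers (282 to 1192 against 10.4 to 30.5 CPM) and 2 of 6 fibroblast markers. Of the 15 cardiomyocyte markers, 3 were higher and 1 lower, with sums of 85713 to 108232 against 69206 to 73399 CPM. The part of these shifts in the result was not tested.

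Between Luc 4 h and Luc 24 h, 5 members rose and none fell, when 32.3% of all genes passed, 24.5% as higher and 7.80% as lower. Ucp3 rose most, from 23.9, 19.1, 23.7 and 21.2 CPM to 102, 148 and 75.8 CPM without overlap (log2 fold change 2.21 ± 0.51, adjusted p = 0.0024). Of all genes, 32.9% were higher without overlap. Angptl4 (1.62 ± 0.35), Cpt1a (0.86 ± 0.21), Slc27a1 (0.62 ± 0.21) and Acsl1 (0.41 ± 0.14) also rose. The split became 3 higher and 1 lower after median-ratio rescaling and 3 higher and 9 lower at equal total CPM, and Angptl4, Cpt1a and Ucp3 passed throughout. Cpt1b, Acadm and Hadha, which were lower at 24 h in the uninjected hearts, were 637, 579.6 and 707 CPM (Cpt1b), 1217, 1209 and 1278 CPM (Acadm) and 1278, 1188 and 1374 CPM (Hadha) in Luc 24 h hearts against 414 and 584 CPM, 1399 and 1288 CPM and 1287 and 1445 CPM in the sham hearts of their own table. The tables were normalized apart and their sham hearts differ, so this difference between tables was not tested.

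At 48 h, 16 members were lower and 1 higher than in sham hearts, when 30.1% of all genes passed, 16.4% as lower and 13.7% as higher. The median log2 fold change of the 35 was -0.50 against -0.03 over all genes. Acadm was 837, 629.6, 717 and 594 CPM against 1399 and 1288 CPM (log2 fold change -0.96 ± 0.14, adjusted p = 4.8e-05), Etfa was 332, 274, 260.4 and 239 CPM (-0.93 ± 0.15, adjusted p = 0.00012) and Decr1 was 303, 232, 210.3 and 189 CPM against 504 and 355 CPM (-0.87 ± 0.19, adjusted p = 0.0015). These were the 3 largest falls among the genes that passed, each without overlap. In that direction 15 of the 35 and 21.6% of all genes did not overlap. Ucp3 and Pdk4 had larger log2 fold changes, -1.16 ± 0.58 and -1.13 ± 0.66, overlapped between the groups and did not pass (adjusted p = 0.13 and 0.21). Angptl4 was the only member higher, at 36.7, 23.5, 47.8 and 13.7 CPM (2.16 ± 0.40, adjusted p = 0.00041). Cd36 did not pass and leaned up, with 2341, 1319, 1935 and 1036 CPM against 1309 and 1048 CPM (0.43 ± 0.23, adjusted p = 0.17). Cardiomyocyte markers summed to 47415 to 66738 CPM against 69206 to 73399 CPM in sham hearts, with 2 of 15 lower. Of the other lists, 9 of 9 neutrophil and monocyte markers were higher (sums of 247 to 732 against 10.4 to 30.5 CPM), as were 3 of 4 atrial (533 to 1169 against 60.7 to 117 CPM), 3 of 6 fibroblast (874 to 1695 against 785 to 856 CPM) and 2 of 3 tested adipocyte markers. The part of these shifts in the result was not tested. Without sham replicate 1, 10 members passed, and with only the sham and Luc 48 h hearts in the fit 5 did.

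From 24 to 48 h, 28 members fell and none rose in Luc hearts, when 41.9% of all genes passed, 32.6% as lower and 9.32% as higher. The median of the 35 was -0.67 and that of all genes -0.25, and the count depended on scaling: 19 lower and 1 higher after median-ratio rescaling, 8 lower and 1 higher at equal total CPM. Pdk4 fell most, from 2126, 2972 and 2618 CPM to 716, 209, 1332 and 91.6 CPM (log2 fold change -2.79 ± 0.59, adjusted p = 0.00086). Ucp3 fell from 102, 148 and 75.8 CPM to 34.5, 12.4, 67.7 and 5.56 CPM (-2.30 ± 0.51, adjusted p = 0.0013) and Angptl4 fell with a log2 fold change of -1.37 ± 0.35. Pdk4, Ucp3, Acadm, Acads, Acsl6, Crat, Etfdh and Hadha passed as lower under every alternative. Cardiomyocyte markers moved with them, 11 of 15 lower with a median of -0.68 and sums of 85713 to 108232 CPM at 24 h and 47415 to 66738 CPM at 48 h. Atrial markers were lower in 3 of 4 and higher in 1, neutrophil and monocyte markers higher in 5 of 9 and lower in 1, and erythroid markers lower in 5 of 5. The part of these shifts in the result was not tested.

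**Figure D4:**
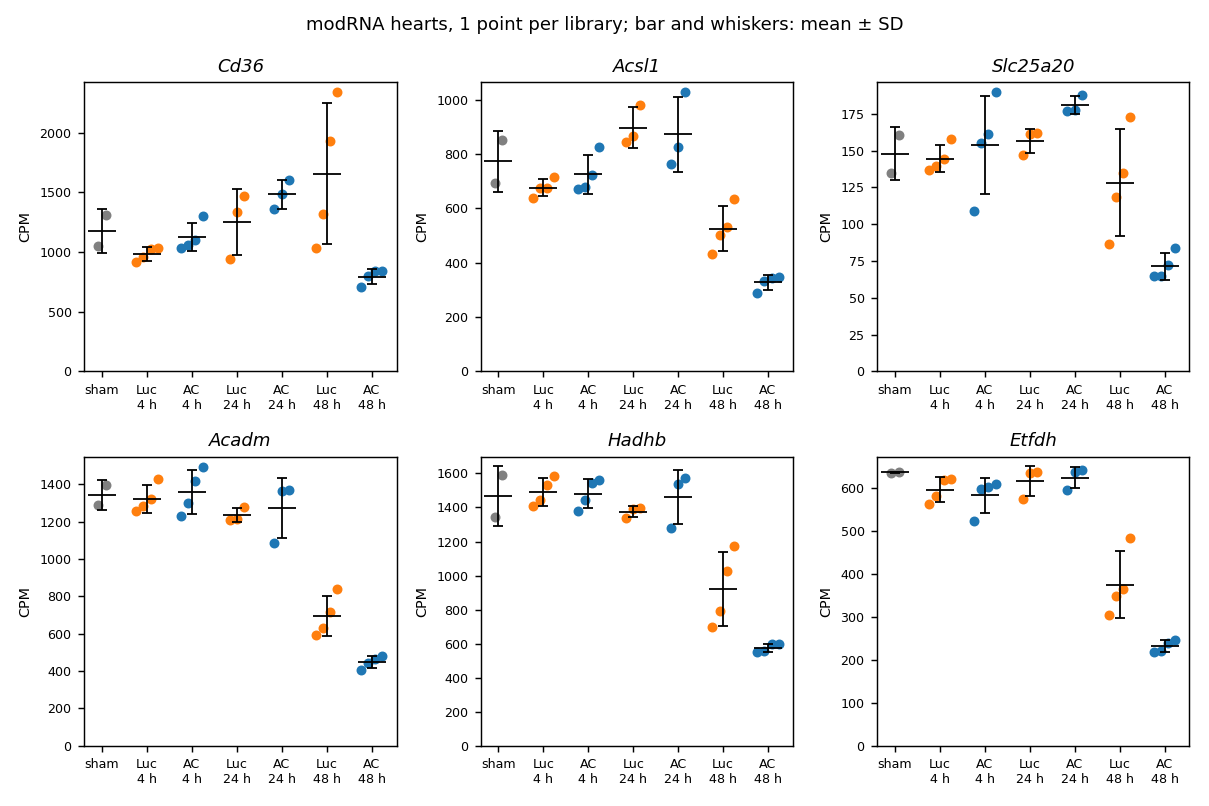
CPM per library (points, linear axes from 0) with the mean ± SD for 6 genes in the second table. The 4 AC 48 h points lie below the 4 Luc 48 h points in each panel.

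AC and Luc hearts were compared at the same time after ligation, with the same surgery and an injection in both. At 4 h none of the 35 genes passed, when 0.00796% of all genes (1 gene) did, and none had an unadjusted p under 0.05 (131 of all genes). Log2 fold changes ran from -0.33 to 0.41, with a median of 0.02. At 24 h none passed and 1 had an unadjusted p under 0.05 (599 of all genes), when again 1 gene of all passed. The largest difference was Angptl4 at 40.1, 51.9 and 28.4 CPM with AC and 99.6, 57.0 and 68.3 CPM with Luc, lower in all 3 AC hearts (log2 fold change -0.89 ± 0.38, adjusted p = 0.99). Of all genes, 6.92% were lower without overlap. With SEs of up to 0.63 on the log2 scale, differences of the size seen for Pdk4 at 24 h (-0.69 ± 0.63) could not be told from the spread.

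At 48 h, 27 of the 35 genes were lower with AC than with Luc and none was higher, when 3.27% of all genes were lower and 12.1% higher. The median log2 fold change of the 35 was -0.60, against 0.14 over all genes, and 3.11% of all genes lay below it. Median-ratio rescaling, which put the median of all genes at 0.00, called 30 members lower. The groups did not overlap for 18 of the 35, against 3.58% of all genes that were lower without overlap. Cardiomyocyte markers summed to 34678 to 46631 CPM with AC and 47415 to 66738 CPM with Luc, with 3 of 15 lower and a median log2 fold change of -0.42, and 4 of 6 fibroblast markers were higher with a median of 1.36 and sums of 2077 to 3527 CPM against 874 to 1695 CPM. Of 4 atrial markers 1 was higher (sums of 1227 to 2966 against 533 to 1169 CPM), and of 9 neutrophil and monocyte markers 1 was higher and 2 were lower (230.0 to 298 against 247 to 732 CPM). The part of these shifts was not tested.

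**Figure D5:**
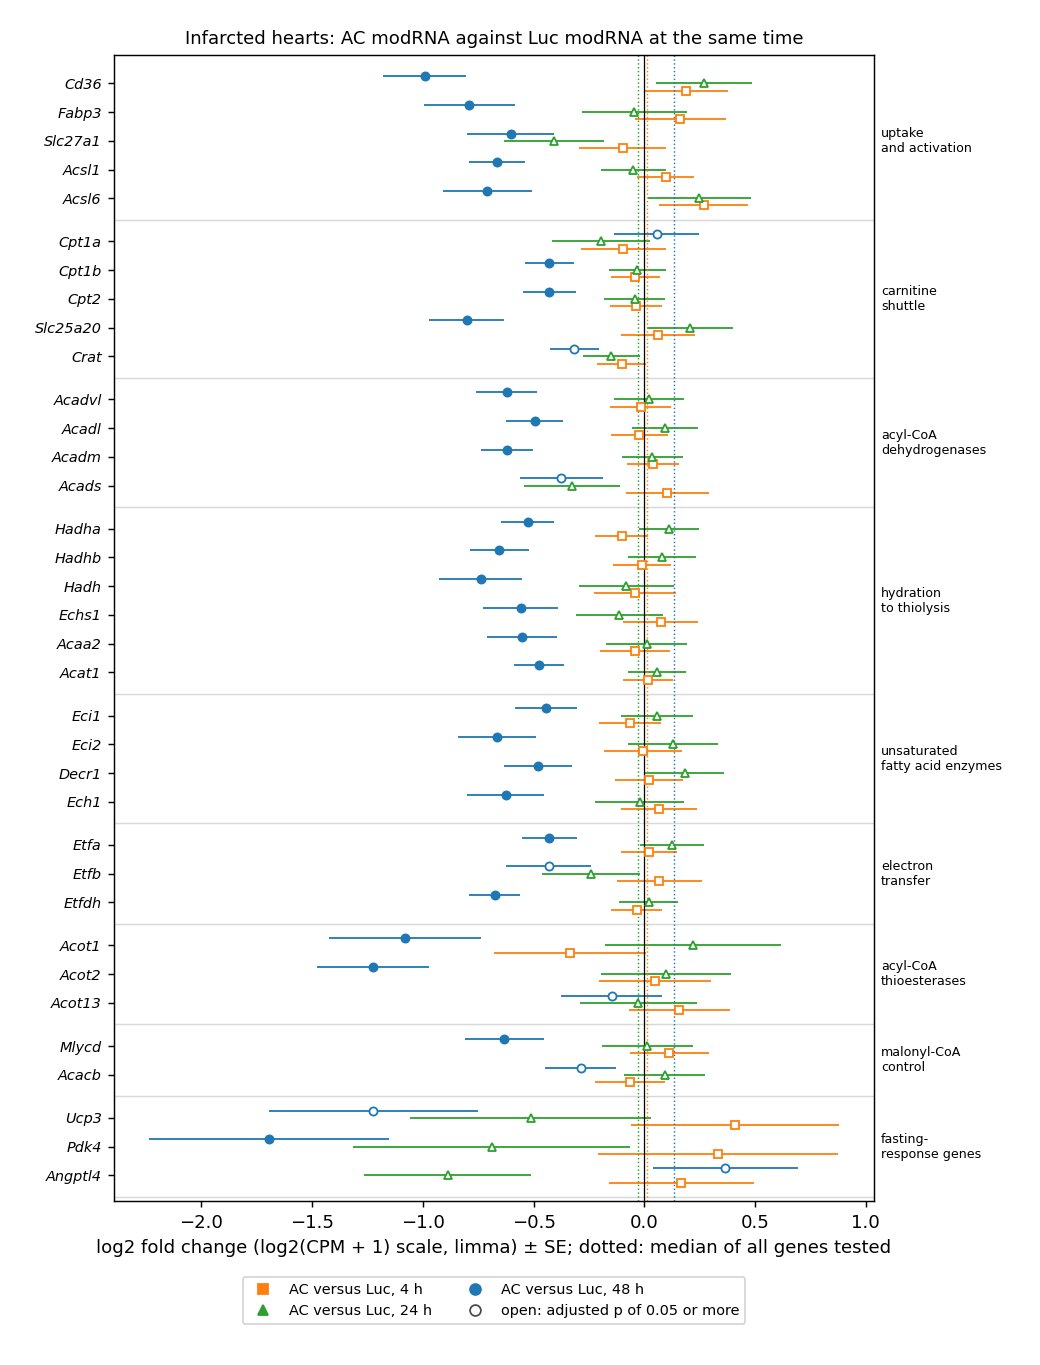
Log2 fold change (log2(CPM + 1) scale) ± SE from limma of AC against Luc modRNA at 4 h (squares), 24 h (triangles) and 48 h (circles) for the 35 genes, with filled symbols for adjusted p under 0.05 and dotted lines at the median of all genes tested. Filled symbols occur only at 48 h, where 27 genes lie to the left of zero.

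All 5 uptake and activation genes were lower with AC at 48 h. Cd36 was 840.1, 705, 839 and 797 CPM with AC (replicates 1, 2, 4 and 5) and 2341, 1319, 1935 and 1036 CPM with Luc (replicates 1 to 4). The AC hearts sat close together below all Luc hearts, and the group means were 795 ± 63.4 and 1658 ± 590.1 CPM (SD, n = 4 each). The log2 fold change was -0.99 ± 0.19 with adjusted p = 0.0013. Acsl1 was 288, 335, 345 and 347 CPM with AC and 633, 503, 532 and 433 CPM with Luc (-0.67 ± 0.13, adjusted p = 0.0013), again without overlap. Fabp3 overlapped between the groups, at 1877, 1314, 1248 and 1582 CPM with AC and 3362, 2263, 3308 and 1733 CPM with Luc, and was lower by the test (-0.79 ± 0.20, adjusted p = 0.013). Slc27a1 and Acsl6 were lower with log2 fold changes of -0.60 ± 0.20 and -0.71 ± 0.20.

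In the carnitine shuttle 3 of 5 were lower. Slc25a20 was 83.5, 64.5, 64.8 and 72.3 CPM with AC against 173, 118, 135 and 86.2 CPM with Luc (-0.80 ± 0.17, adjusted p = 0.0029). Cpt1b was 269, 307, 273 and 309 CPM against 428, 379, 373 and 379 CPM (-0.43 ± 0.11, adjusted p = 0.013) and Cpt2 was 80.4, 93.0, 88.5 and 97.1 CPM against 142, 128, 108 and 108 CPM (-0.43 ± 0.12, adjusted p = 0.019). Neither gene overlapped between the groups. Cpt1a was 25.8, 38.5, 36.9 and 32.1 CPM with AC and 41.0, 26.0, 37.0 and 25.4 CPM with Luc and did not pass (log2 fold change 0.06 ± 0.19, adjusted p = 0.87). The Cpt1a to Cpt1b ratio of CPM was 0.0959 to 0.135 with AC and 0.0670 to 0.0991 with Luc. Crat did not overlap between the groups but did not pass (-0.32 ± 0.11, adjusted p = 0.055).

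The spiral was lower along its length. Of the dehydrogenases, Acadm was 444, 404, 479 and 465 CPM with AC and 837, 629.6, 717 and 594 CPM with Luc (-0.62 ± 0.12, adjusted p = 0.0013), Acadvl and Acadl were lower with log2 fold changes of -0.62 ± 0.14 and -0.50 ± 0.13 and Acads did not pass (-0.37 ± 0.19, adjusted p = 0.18). All 6 genes from hydration to thiolysis were lower, with log2 fold changes from -0.74 (Hadh) to -0.48 (Acat1). Hadhb was 549, 555, 596 and 598 CPM with AC and 1174, 790.4, 1029 and 699 CPM with Luc, without overlap (-0.65 ± 0.13, adjusted p = 0.0023). Hadha was 442, 536, 552 and 551 CPM and 912, 701, 761 and 638 CPM (-0.53 ± 0.12, adjusted p = 0.0051). All 4 genes for unsaturated fatty acids were lower, from -0.66 ± 0.18 for Eci2 to -0.44 ± 0.14 for Eci1. In electron transfer, Etfdh had the smallest adjusted p of the 35 genes, at 217, 221, 239.6 and 247 CPM with AC and 484, 347, 364 and 304 CPM with Luc (-0.68 ± 0.12, adjusted p = 0.00051). Etfa was lower (-0.43 ± 0.12) and Etfb did not pass (-0.43 ± 0.19, adjusted p = 0.13).

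Of the 3 fasting-response genes, Pdk4 was lower and the others did not pass, and of the 3 thioesterases Acot1 and Acot2 were lower. Pdk4 was 94.4, 129.8, 120.3 and 111 CPM with AC and 716, 209, 1332 and 91.6 CPM with Luc (-1.69 ± 0.54, adjusted p = 0.038). Luc replicates 1 and 3 were high and replicate 4 lay at the level of the AC hearts, so the groups overlapped. For Acot2 the same Luc hearts, 1 and 3, were high, with 18.3, 19.6, 17.7 and 19.7 CPM with AC and 81.1, 36.7, 62.0 and 22.5 CPM with Luc, but no overlap (-1.22 ± 0.25, adjusted p = 0.0026). Acot1 was 2.51, 2.26, 3.34 and 2.97 CPM with AC and 12.2, 5.16, 14.1 and 2.17 CPM with Luc (-1.08 ± 0.34, adjusted p = 0.037), and part of its reads may belong to Acot2. Ucp3 was 6.10, 8.50, 8.38 and 10.4 CPM with AC and 34.5, 12.4, 67.7 and 5.56 CPM with Luc and did not pass (-1.22 ± 0.47, adjusted p = 0.08). Angptl4, 32.9, 35.7, 42.5 and 32.8 CPM with AC and 36.7, 23.5, 47.8 and 13.7 CPM with Luc, did not pass and leaned the other way (0.37 ± 0.33, adjusted p = 0.48). Of the malonyl-CoA pair, Mlycd was lower with overlap (46.4, 34.7, 33.6 and 40.5 CPM against 73.1, 53.1, 73.9 and 45.7 CPM, -0.63 ± 0.18, adjusted p = 0.02) and Acacb, the deepest fall in the uninjected hearts at 24 h, did not pass (-0.29 ± 0.16, adjusted p = 0.23).

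The count at 48 h moved with single libraries. Without Luc 48 h replicate 1, 11 members were lower, without Luc replicate 3, AC replicate 2 or AC replicate 4, 15 were, and in a fit of the AC and Luc 48 h hearts alone 8 were. Acadm, Acot2, Acsl1, Cd36, Etfdh, Hadhb and Slc25a20 were called lower under every alternative run. For each of these genes Luc replicates 1 and 3 lay above Luc replicates 2 and 4, which was not so for Cpt1b and Cpt2. Over all genes, Luc replicates 1 and 3 were also farther from the sham mean (Pearson r 0.910 and 0.899) than replicates 2 and 4 (0.943 and 0.945). None of the alternatives called a member higher.

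Whether the AC to Luc difference itself changed with time was tested as a difference of differences. Between 48 h and 4 h it shifted downward for 6 members, Cd36, Acsl1, Slc25a20, Acadm, Etfdh and Acot2, when 3.35% of all genes passed, 0.470% downward and 2.88% upward. The largest shifts among them were in Acot2 (-1.27 ± 0.36, adjusted p = 0.049) and Cd36 (-1.18 ± 0.27, adjusted p = 0.016). Between 48 h and 24 h it shifted downward for Cd36 (-1.26 ± 0.29, adjusted p = 0.019), Slc25a20 (-1.01 ± 0.26, adjusted p = 0.035) and Etfdh (-0.70 ± 0.18, adjusted p = 0.034), when 2.56% of all genes passed, 0.335% downward and 2.23% upward. Both comparisons use the same 48 h hearts. Between 24 h and 4 h no member passed, with 1 of all genes passing and 1 of the 35 with an unadjusted p under 0.05 (379 of all genes). These counts were less steady than those within a time, with 2 to 18 members for 48 h against 4 h and 0 to 14 for 48 h against 24 h when 1 library was left out, the highest without Luc 48 h replicate 4.

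Of the 46 neighbouring genes tested, 10 were lower and 3 higher with AC at 48 h, when 3.27% of all genes were lower and 12.1% higher. Lpl, the lipoprotein lipase, was lower (-0.62 ± 0.15, adjusted p = 0.0095), as was Bdh1, a dehydrogenase of ketone body metabolism (-0.82 ± 0.18, adjusted p = 0.0037). The synthetase Acsl5 (0.83 ± 0.19), the binding protein Fabp5 (0.69 ± 0.21) and the peroxisomal reductase Decr2 (0.87 ± 0.28) were higher. These genes were named after their values were seen.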

How the data were processed

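The data were bulk RNA-seq libraries of the mouse left ventricle, 10 in a table of uninjected hearts and 24 in a table of hearts with modRNA or sham operation. For the first table, the study's methods state alignment to mm10, estimation of transcript abundance from RefSeq annotation and TMM normalization. The second experiment is not described there, so its processing is not given in the sources used here. The authors deposited CPM values, and those of the second table carry an added 1, which was subtracted. The labels name a stranded poly(A) kit. Of the values under 1 CPM, 82.7% in the first table and 4.71% in the second were whole multiples of the lowest value of the library (within 0.02), so whole reads could not be recovered and no count test was run. Dividing summed CPM by that lowest value, taken as a single read, gives a rough 12553519 to 18952669 reads on the listed genes per library in the first table. The study's methods state a higher mean number of reads per sample. The depth of the second table is unknown.

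Within each table, genes averaging 1 CPM or more (12487 and 12555 genes) were fitted as log2(CPM + 1) with limma 3.58.1 in R 4.3.3, with all groups in 1 model, an intensity trend, and Benjamini-Hochberg adjustment over all genes tested (two-sided, threshold 0.05). AC and Luc effects at 2 times were compared by their difference in the same model. The script was tested on simulated data. Alternatives were a pseudocount of 0.1, no filter, a minimum mean of 10 CPM, array weights, median-ratio and equal-total scaling, the compared groups alone, a block for the replicate number or letter, and leaving out each library. Members, gene lists and tests were chosen with earlier results of these data known. By rule, per-library values are given for the 3 largest called rises and falls of a comparison and for a fixed set of 15 members, and from each list of neighbouring genes the one with the largest change at 24 h post-MI was named. Shared 50-base windows were counted over GENCODE M21 transcripts, and promoters were taken from RefSeq (GRCm38.p6). Whether the gene models that share windows were in the RefSeq annotation used by the study was not checked. Python 3.11, pandas 2.3.3 and matplotlib 3.10.9 were used for summaries and plots.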

Additional observations from a re-analysis of the deposited data

Results flagged for a closer look

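In groups of 4 libraries, 12 of 175 combinations of member and group had 1 library set apart from the others by Dixon's criterion at the 95% level, which chance gives in about 1 in 20 groups. Among uninjected hearts at 24 h post-MI, replicate D was high for Pdk4 (1408 CPM against 405 to 479 in the others) and Ucp3 (18.2 CPM against 4.24 to 5.14). Luc 4 h replicate 1 was high for 5 members, Cpt1b (638 CPM), Acadvl (1004 CPM), Hadha (1501 CPM), Acat1 (591 CPM) and Eci2 (155 CPM). Luc 4 h replicate 3 was low for Acot13 (215 CPM), and AC 4 h replicate 2 was low for Etfdh (522 CPM). At 48 h, Luc replicate 1 was high for Cpt1b (428 CPM), AC replicate 1 was low for Hadha (442 CPM) and AC replicate 2 was low for Decr1 (142 CPM).

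The AC to Luc difference changed between times by limma's test of the difference itself for 6 members. Between 48 h and 4 h the log2 difference shifted by -1.27 for Acot2 (adjusted p = 0.049), -1.18 for Cd36 (0.016), -0.86 for Slc25a20 (0.045), -0.76 for Acsl1 (0.019), -0.66 for Acadm (0.03) and -0.64 for Etfdh (0.031). Between 48 h and 24 h it shifted by -1.26 for Cd36 (0.019), -1.01 for Slc25a20 (0.035) and -0.70 for Etfdh (0.034). None of these 9 shifts passed with the replicate number as a block.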

How the results depend on the processing

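Of the 30 members called at 24 h post-MI against sham, 22 passed under every alternative run, as did 24 of 28 against 4 h, 5 of 17 for Luc 48 h against sham, 8 of 28 for Luc 48 h against Luc 24 h, 7 of 27 for AC against Luc at 48 h and none of the shifts of the AC effect. The cause of the changes below was not tested. For MI at 4 h the count of 0 became 2 with array weights, 1 with the replicate block and 2 with the compared groups alone. For Luc 24 h against sham it went from 7 to 9 at equal total CPM (1 higher, 8 lower), and for Luc 24 h against Luc 4 h from 5 to 10 with array weights, 10 with the compared groups alone and 12 at equal total CPM (3 higher, 9 lower). For Luc 48 h it was 5 of 17 against sham with the compared groups alone, and against Luc 24 h it went from 28 to 9 at equal total CPM (1 higher, 8 lower), where Eci2 turned to a log2 fold change of 0.0033. For AC against Luc at 48 h it was 14 with the replicate block and 8 with the compared groups alone. The shift of the AC effect from 24 to 48 h counted 1 with a minimum of 10 CPM, 14 with array weights, 15 after median-ratio rescaling, 12 at equal total CPM, and 0 with the replicate block or the compared groups alone. From 4 to 48 h it counted 20 with array weights, 17 after median-ratio rescaling, 0 with the replicate block and 3 with the compared groups alone. Leaving out 1 library gave 0 to 1 calls for MI 4 h against sham, 25 to 32 for MI 24 h against sham, 24 to 29 for MI 24 h against MI 4 h, 0 to 1 for Luc 4 h, 1 to 8 for Luc 24 h and 10 to 20 for Luc 48 h against sham, 3 to 5 for Luc 24 h against Luc 4 h, 23 to 30 for Luc 48 h against Luc 24 h, 0 for AC at 4 and 24 h, 11 to 28 for AC at 48 h, and 0, 0 to 14 and 2 to 18 for the shifts from 4 to 24, 24 to 48 and 4 to 48 h. The all-gene median went, under median-ratio rescaling and at equal total CPM, from 0.16 to -0.01 and -0.11 for Luc 24 h against sham, from -0.25 to -0.03 and 0.18 for Luc 48 h against Luc 24 h, and from 0.14 to 0.00 and 0.20 for AC at 48 h, with members at -0.75 and -0.54 in the last. Libraries of the same number or letter did not deviate together throughout (r across genes from -0.06 to 0.34 over 5 pairs and from -0.21 to 0.43 over 14 pairs). Pairs of different number or letter ran from -0.34 to 0.28 in the first table and from -0.48 to 0.54 in the second. The highest r of the first table, 0.34, joined replicate D at 4 h and at 24 h post-MI. Whether the numbers or letters mark something shared was not tested. In the second table the block was the number within a time, so none could be fitted for Luc hearts between times or for Luc 24 h and 48 h against the 4 h sham hearts. With 2 sham hearts in the second table and its depth unknown, small differences from sham were not detectable.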
